A study of Mus musculus with 24 samples.

Results

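The genes described here are 38 genes of endothelial identity and endothelial junctions, measured by RNA sequencing in mouse hearts 3 weeks after myocardial infarction. They were taken from the count table by symbol, from a given list chosen with earlier results of these data known. Shares of members set beside shares of all genes are therefore descriptions and not independent support. All 38 genes were found among the 21878 genes of the count table and among the 13501 with enough counts to test. By role they comprised 11 genes of junctions and the cell surface, 11 receptors and their partners, 4 transcription factors, 5 genes of enzymes, secreted proteins and capillary surface proteins, and 7 genes of signalling and the actin skeleton. Per the labels all mice had been ovariectomised and all had an infarction. They had received AAV9, an adeno-associated virus used to carry genes to heart muscle, that was either empty or made to overexpress miR-21, a microRNA, and part of them had swum as training ahead of the infarction. The groups were the empty vector without swimming (6 libraries, called the empty vector control), the empty vector with swimming (6), miR-21 without swimming (6, called the miR-21 control) and miR-21 with swimming (5). The labels give neither strain, age, virus dose nor promoter, no group lacked the infarction or the ovariectomy, and the tissue is given only as heart. The labels do not say that each library came from its own mouse, and p-values then reflect only variation among these samples, which may be technical.

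Endothelial cells line every blood vessel, and in the heart most of them form capillaries between muscle fibres. They are joined by adherens junctions built on VE-cadherin and by tight junctions built on claudin-5, and a small set of transcription factors of the ETS family keeps the genes of the lineage active. After an infarction capillaries are lost in the scar, and vessels at its border sprout under vascular endothelial growth factor (VEGF), angiopoietin and apelin signals. In RNA from whole tissue, fewer endothelial cells and less RNA of these genes per cell cannot be told apart.

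A microRNA pairs through its seed, bases 2 to 8, with matching sites in the 3' untranslated region of transcripts, and the sequence of miR-21a-5p is shown with the matches found in the members because the vector carried miR-21. RefSeq (GRCm38.p6) places the mature strand at chr11:86584120-86584141 on the minus strand. Capitals mark the seed, and in the sites the 7 bases ATAAGCT that pair with it.
mmu-miR-21a-5p: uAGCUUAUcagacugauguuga
Cd34 site: ctacaaagactATAAGCTtcctctcctgg
Flt1 site: gaagactaatgATAAGCTatgagaaccaa
Tie1 site: gctcagggagcATAAGCTactgagagcat
Rgcc site: tggaggtcataATAAGCTttcccatcata
These 4 of the 38 members (10.5%) held the 7-base match, beside 7.8% of 12969 tested genes with such a region in the GENCODE M21 transcripts. The median length of the region was 1446 bases in the members and 1192 in the tested genes, and the shares were not adjusted for length. The sites begin at base 1332 of 1485 of the region in Cd34 (chromosome 1), 3233 of 3971 in Flt1 (chromosome 5), 167 of 2240 in Tie1 (chromosome 4) and 303 of 356 in Rgcc (chromosome 14). Of these 4 genes 1 passed the test in any comparison: Cd34 fell with the miR-21 vector in swimming mice, while Flt1, Tie1 and Rgcc passed in none. A match is a description of the sequence and was not tested as a site.

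Libraries held 12744241 to 14657630 counts, and 0 pairs of libraries had identical counts. The numbers in the sample titles form a lower series in 14 libraries (both groups without swimming and replicates 1 and 2 of the miR-21 swimming group) and a higher one in 9 (all of the empty vector swimming group, and replicates 3 to 5 of the miR-21 swimming group), and the labels do not say what the numbers mark. For the empty vector, swimming and the number series therefore cannot be told apart within that comparison alone. In 3 libraries (empty vector control replicates 2 and 5, miR-21 swimming replicate 2) 9 adipocyte markers summed to 389, 324 and 361 CPM (counts scaled to library size), against 34.2 to 62.0 in the other 20 libraries. The same 3 libraries held the highest sums of pan-leukocyte markers (443, 291 and 495 CPM, against at most 178 elsewhere) and macrophage markers (2356, 1473 and 2263, against at most 1001), and the lowest of cardiomyocyte markers (81876, 75885 and 59487, against at least 90465).

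Scaled to transcript length, all 38 members were detected in all 23 libraries, the lowest value being 1.53 FPKM for Tal1, so the heart tissue held the transcripts of these endothelial genes throughout. In the authors' deposited FPKM values (fragments scaled to transcript length and library size), the highest median over 23 libraries was that of Gpihbp1, which anchors lipoprotein lipase to the capillary wall, at 133. Next came the surface sialomucin Cd34 (98.0), the secreted matrix factor Egfl7 (96.4), VE-cadherin, Cdh5 (89.4), the adrenomedullin receptor partner Ramp2 (73.1) and PECAM-1, Pecam1 (64.8). At the low end stood the lymphatic VEGF receptor Flt4 (6.19), the adaptor She (5.49) and the haematopoietic and endothelial factor Tal1 (2.07). The empty vector swimming group had the highest median of the 4 groups for 30 members by FPKM and for 29 by CPM. The miR-21 control had the lowest median for 27 members by FPKM and for 16 by CPM. The shares of all genes with their highest or lowest median in these groups are not given here. These counts therefore only describe levels and are not a result about the members. FPKM served only for levels between genes; groups were compared on counts scaled by trimmed mean of M-values (TMM).

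**Figure D1:**
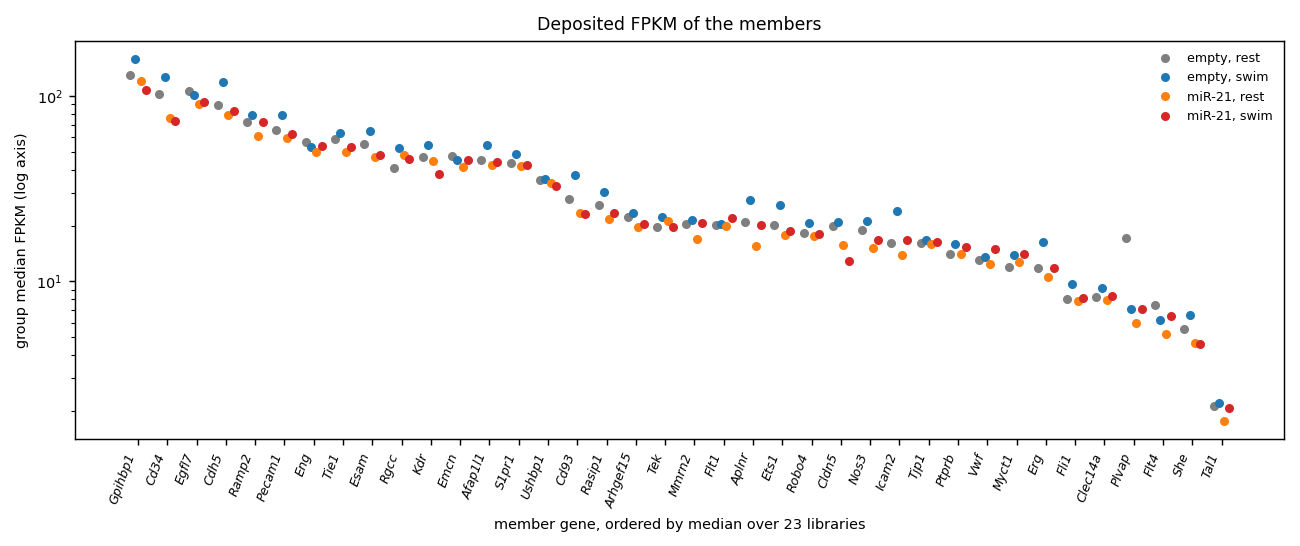
Group medians of the deposited FPKM (log axis) for the 38 members, ordered by their median over 23 libraries, with 1 colour per group. Gpihbp1 (133) and Cd34 (98.0) stand at the high end and Tal1 (2.07) at the low end. The empty vector swimming group has the highest point for 30 of the 38, and the share of all genes is not given here.

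The first comparison asked how hearts of mice that had swum differed from those that had not, with the empty vector. With swimming, 11 of 38 members rose and 0 fell (28.9% higher, beside 4.18% of all 13501 genes, edgeR adjusted p under 0.05). They were VE-cadherin and 4 other junction and surface genes (Pecam1, Icam2, Esam and Cd93), 3 ETS factors (Erg, Fli1 and Ets1), the angiopoietin receptor Tek, and Rasip1 and Afap1l1. The changes were small, from 0.20 for Tek to 0.58 for Icam2 on the log2 scale. Over all 38 members 33 had a positive log2 fold change and the median was 0.19, beside 49% positive and a median of -0.0048 over all genes. An unadjusted p under 0.05 was found for 18 members, beside 23.3% of all genes. For 5 members, Icam2, Tek, Fli1, Rasip1 and Afap1l1, every swimming library lay above every control library (13.2%, beside 2.9% of all genes). When the model held the title number series, which it estimates from the miR-21 swimming group, Icam2 and Erg were the 2 members that still passed. That term rests on replicates 1 and 2 of that group against replicates 3 to 5, and replicate 2 is adipocyte-high, so values with it are uncertain. The standard errors of the 11 were then 1.77 to 1.89 times as large, while all 11 values stayed positive and 8 were at least as large as without the term, with Cdh5 at 0.44 ± 0.17, Pecam1 at 0.45 ± 0.12, Cd93 at 0.56 ± 0.20, Ets1 at 0.47 ± 0.18 and Rasip1 at 0.39 ± 0.12. The values of Esam (0.14), Tek (0.14) and Afap1l1 (0.24) were smaller with it. The count was 4 without replicate 4 of the control or without replicate 5 or 6 of the swimming group, 5 without replicate 3 of the control or replicate 2 of the swimming group, 6 without replicate 1 of the swimming group, and 7 without replicate 2 or 5 of the control, replicate 4 of the swimming group or replicate 1 of the miR-21 control. Cdh5, Icam2, Erg and Rasip1 passed with any 1 of the 23 libraries left out.

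**Figure D2:**
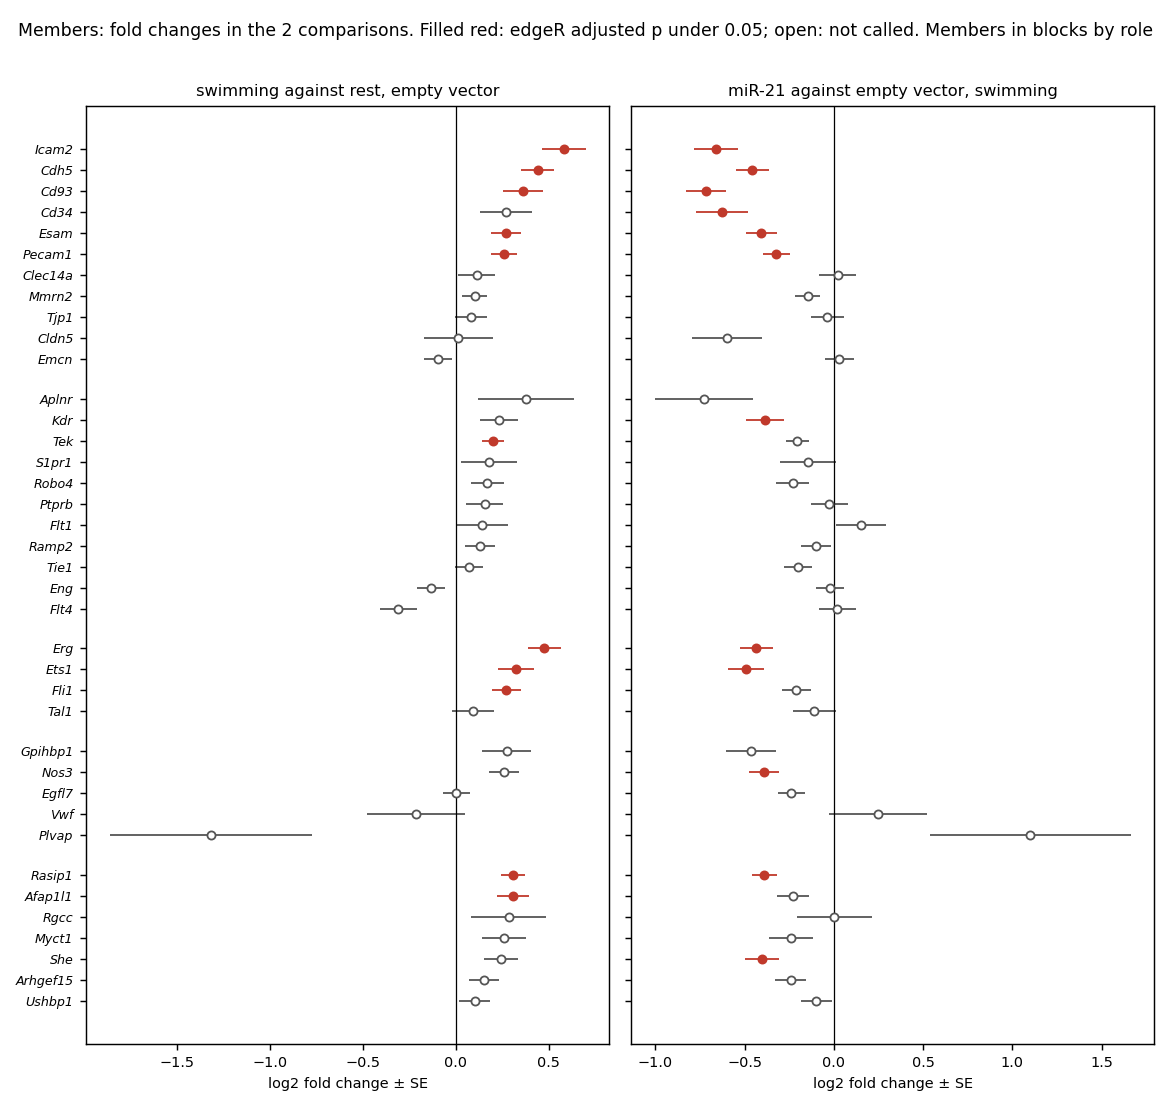
Log2 fold changes with standard errors of the 38 members, in blocks by role, for swimming against no swimming with the empty vector (left) and miR-21 against empty vector in swimming mice (right); both comparisons use the empty vector swimming libraries. Filled red points passed at an edgeR adjusted p under 0.05: 11 on the left, all higher, and 12 on the right, all lower.

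Junction and surface genes held 5 of the 11 rises. VE-cadherin, Cdh5, the cadherin of endothelial adherens junctions, stood at 303 to 378 CPM (median 342) in the empty vector control and 373 to 513 CPM (median 485) with swimming. In the miR-21 control it stood at 311 to 403 CPM (median 329), and in replicates 1 to 5 of the miR-21 swimming group at 395, 286, 322, 358 and 341 CPM. With the empty vector 5 of the 6 swimming libraries lay above all controls, and replicate 3 (373) lay among them. The means were 345 ± 27.5 CPM (SD, n = 6) and 468 ± 53.1 (SD, n = 6), a log2 change of 0.44 ± 0.09 (SE; edgeR adjusted p = 0.00406) or 1.36-fold.

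Icam2, an adhesion molecule of resting endothelium that leukocytes bind, rose most. It stood at 20.5 to 28.7 CPM (median 24.9) in the empty vector control, 29.8 to 46.1 CPM (median 37.5) with swimming and 20.3 to 25.6 CPM (median 23.1) in the miR-21 control, and at 28.2, 24.9, 17.9, 26.0 and 21.1 CPM in replicates 1 to 5 of the miR-21 swimming group. The empty vector swimming libraries were above those of each other group without overlap, and the log2 fold change with swimming was 0.58 ± 0.12 (SE; edgeR adjusted p = 0.00403). PECAM-1, Pecam1, which joins neighbouring endothelial cells and senses flow, stood at 238 to 298 CPM (median 258) in the control and 284 to 366 CPM (median 310.0) with swimming. It stood at 232 to 266 CPM (median 236) in the miR-21 control and at 225 to 293 CPM in the miR-21 swimming group. Its rise, 0.26 ± 0.07 (SE; edgeR adjusted p = 0.0273), left the groups overlapping, with replicate 5 of the control (298) above the lowest swimming library.

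Esam, an adhesion molecule of endothelial tight junctions, stood at 82.0 to 113 CPM (median 98.1) in the empty vector control, 99.1 to 135 CPM (median 119.7) with swimming and 82.5 to 104 CPM (median 90.0) in the miR-21 control. In the miR-21 swimming replicates it stood at 89.3, 79.7, 101, 88.3 and 89.5 CPM. Its rise was close in size to that of Pecam1, 0.27 ± 0.08 (SE; edgeR adjusted p = 0.0447), and it passed in 12 of 23 fits that left out 1 library. Without the 3 adipocyte-high libraries it had 0.21 ± 0.08 (adjusted p = 0.0908). Cd93, a C-type lectin of sprouting endothelium, stood at 163 to 217 CPM (median 188) in the control, 176 to 304 CPM with swimming and 141 to 169 CPM (median 159) in the miR-21 control, and at 157, 168, 121, 172 and 130.2 CPM in the miR-21 swimming replicates. Its log2 fold change with swimming was 0.36 ± 0.11 (SE; edgeR adjusted p = 0.0411), although replicate 3 of the swimming group (176) lay below the control median. Cd93 passed in 9 of 23 fits that left out 1 library, and Pecam1 in 17. The other 6 genes of the role did not pass: Cd34 (0.27), the tight junction genes Cldn5 (0.01) and Tjp1 (0.08), the sialomucin Emcn (-0.09), the lectin Clec14a (0.11) and its matrix ligand Mmrn2 (0.10).

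Of the 4 transcription factors 3 rose. Erg, an ETS factor needed to keep endothelial cells differentiated, stood at 37.2 to 47.7 CPM (median 43.5) in the empty vector control, 46.3 to 69.9 CPM (median 60.2) with swimming and 37.8 to 45.1 CPM (median 39.7) in the miR-21 control. In the miR-21 swimming replicates it stood at 49.8, 46.9, 43.9, 42.7 and 37.0 CPM. Of the 6 swimming libraries 5 were above every control library, and the log2 change was 0.48 ± 0.09 (SE; edgeR adjusted p = 0.00267), or 1.39-fold. Ets1, a relative that is also present in lymphocytes, stood at 92.6 to 118 CPM (median 110.4) in the control and 99.2 to 170.2 CPM (median 139.5) with swimming, and rose by 0.32 ± 0.10 on the log2 scale (SE; edgeR adjusted p = 0.0398). It stood at 96.9 to 110.1 CPM (median 99.6) in the miR-21 control and at 103, 103, 87.8, 110.3 and 80.5 CPM in the miR-21 swimming replicates. Replicate 3 of the swimming group (99.2) lay among the controls and the other 5 above them, and Ets1 passed in 7 of 23 fits that left out 1 library. Fli1, the nearest relative of Erg, rose by 0.27 ± 0.08 (SE; edgeR adjusted p = 0.0322) with no overlap of the groups, and passed in 15 of 23 fits that left out 1 library. Tal1 did not pass (0.09).

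Rasip1, which works with the small GTPase Rap1 in opening vessel lumens and holding junctions, rose with less spread than most members. It stood at 69.6 to 87.8 CPM (median 78.2) in the empty vector control, 89.0 to 111 CPM (median 94.8) with swimming and 66.1 to 76.3 CPM (median 70.9) in the miR-21 control, and at 76.3, 76.5, 68.1, 77.4 and 71.0 CPM in the miR-21 swimming replicates. All 6 swimming libraries were above all others, with a log2 change of 0.31 ± 0.07 (SE; edgeR adjusted p = 0.00634). Afap1l1, an actin-binding adaptor, rose by 0.31 ± 0.09 (SE; edgeR adjusted p = 0.0296), also without overlap, and passed in 17 of those 23 fits. The other 5 genes of signalling and the actin skeleton had positive values that did not pass, from 0.10 for Ushbp1 to 0.28 for the cell cycle regulator Rgcc, with She at 0.24, Myct1 at 0.26 and Arhgef15 at 0.15.

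Because members of several roles moved together, promoter windows from 250 bases before to 50 bases after the RefSeq start (GRCm38.p6) are shown for the 4 called members with the smallest p among those with an entry and a shared pattern, with the ETS hexamer AGGAAG or its reverse complement CTTCCT in capitals. RefSeq entries were found for 20 of the 38 members. The windows lie at chr7:45627287-45627586 (plus strand) for Rasip1, chr16:95586544-95586843 (minus strand) for Erg, chr1:194938571-194938870 (plus strand) for Cd34 and chr3:89831120-89831419 (plus strand) for She.
Rasip1: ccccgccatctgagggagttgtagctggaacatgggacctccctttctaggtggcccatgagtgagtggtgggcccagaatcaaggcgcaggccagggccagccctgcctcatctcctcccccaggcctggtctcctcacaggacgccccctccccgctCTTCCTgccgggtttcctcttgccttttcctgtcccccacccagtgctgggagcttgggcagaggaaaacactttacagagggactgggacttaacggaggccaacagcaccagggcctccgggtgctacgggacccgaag
Erg: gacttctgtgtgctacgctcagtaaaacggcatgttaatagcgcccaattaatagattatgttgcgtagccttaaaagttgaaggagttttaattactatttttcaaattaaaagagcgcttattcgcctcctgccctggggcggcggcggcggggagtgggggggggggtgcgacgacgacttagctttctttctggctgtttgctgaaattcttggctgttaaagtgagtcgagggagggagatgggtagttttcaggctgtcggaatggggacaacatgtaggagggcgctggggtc
Cd34: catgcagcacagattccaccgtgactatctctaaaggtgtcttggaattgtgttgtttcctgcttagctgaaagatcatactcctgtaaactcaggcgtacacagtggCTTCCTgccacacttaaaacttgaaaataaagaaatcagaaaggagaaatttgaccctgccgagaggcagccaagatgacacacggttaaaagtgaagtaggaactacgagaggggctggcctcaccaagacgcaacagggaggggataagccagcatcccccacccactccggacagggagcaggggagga
She: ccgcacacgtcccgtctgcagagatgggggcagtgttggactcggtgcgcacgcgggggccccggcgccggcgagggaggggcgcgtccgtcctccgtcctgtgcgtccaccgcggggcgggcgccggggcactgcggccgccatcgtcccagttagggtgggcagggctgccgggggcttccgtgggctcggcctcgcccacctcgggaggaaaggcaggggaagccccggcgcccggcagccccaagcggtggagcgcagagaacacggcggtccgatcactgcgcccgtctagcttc
The hexamer begins at position -91 in Rasip1 and -142 in Cd34, counted from the start, and is not in the windows shown for Erg and She. Erg has 3 listed starts, of which the most upstream is shown and 1 has the hexamer. On both strands, 12 of the 20 members with an entry (60%) held AGGAAG within at least 1 window, beside 38.4% of 27025 genes and 35.4% of 32851 windows. Of the 7 members that passed in any comparison and have an entry, 3 held it. The GATA motif AGATAA was in 4 of 20 members (20%, beside 12.7% of genes) and the SOX motif AACAAT in 4 of 20 (20%, beside 12.2%), and none of the 3 words contains another. These counts describe letters in a window and not binding.

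Among the 11 receptors and partners 1 rose with swimming. Tek, the receptor of angiopoietins that stabilises vessels, stood at 87.5 to 97.6 CPM (median 91.1) in the empty vector control, 98.8 to 116 CPM (median 104) with swimming and 89.4 to 109 CPM (median 103) in the miR-21 control, and at 99.4, 79.1, 97.2, 84.9 and 97.0 CPM in the miR-21 swimming replicates. The swimming and control libraries did not overlap, but the change was small, 0.20 ± 0.06 (SE; edgeR adjusted p = 0.0471), and passed in 8 of 23 fits that left out 1 library. Kdr, the main VEGF receptor of blood vessels, stood at 185 to 291 CPM (median 252) in the control and 269 to 314 CPM (median 294) with swimming, a log2 change of 0.23 ± 0.10 that did not pass (edgeR adjusted p = 0.163). Its control libraries were spread more widely than the swimming ones. The remaining 9 ranged from -0.31 for Flt4 (adjusted p = 0.0592) to 0.38 for the apelin receptor Aplnr (adjusted p = 0.399). Between these lay the decoy VEGF receptor Flt1 (0.14), the Tek partner Tie1 (0.07), the phosphatase Ptprb (0.15), the guidance receptor Robo4 (0.17), the sphingosine receptor S1pr1 (0.18), Ramp2 (0.13) and the TGF-beta co-receptor Eng (-0.13).

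None of the 5 enzymes, secreted and capillary surface genes passed for swimming by edgeR, and 3 had an unadjusted p under 0.05. Endothelial nitric oxide synthase, Nos3, which makes the vasodilator nitric oxide, stood at 61.8 to 84.9 CPM (median 74.9) in the empty vector control and 76.7 to 102 CPM (median 86.7) with swimming. It stood at 54.6 to 70.8 CPM (median 64.1) in the miR-21 control and at 70.5, 61.0, 71.3, 72.7 and 67.3 CPM in the miR-21 swimming replicates. Its log2 fold change with swimming, 0.26 ± 0.08, missed the threshold by edgeR (adjusted p = 0.0545) and passed by DESeq2 and by limma voom. Gpihbp1 had 0.28 (adjusted p = 0.209), Egfl7 0.00, the clotting factor Vwf -0.21 and the fenestral diaphragm gene Plvap -1.32 (adjusted p = 0.147).

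**Figure D3:**
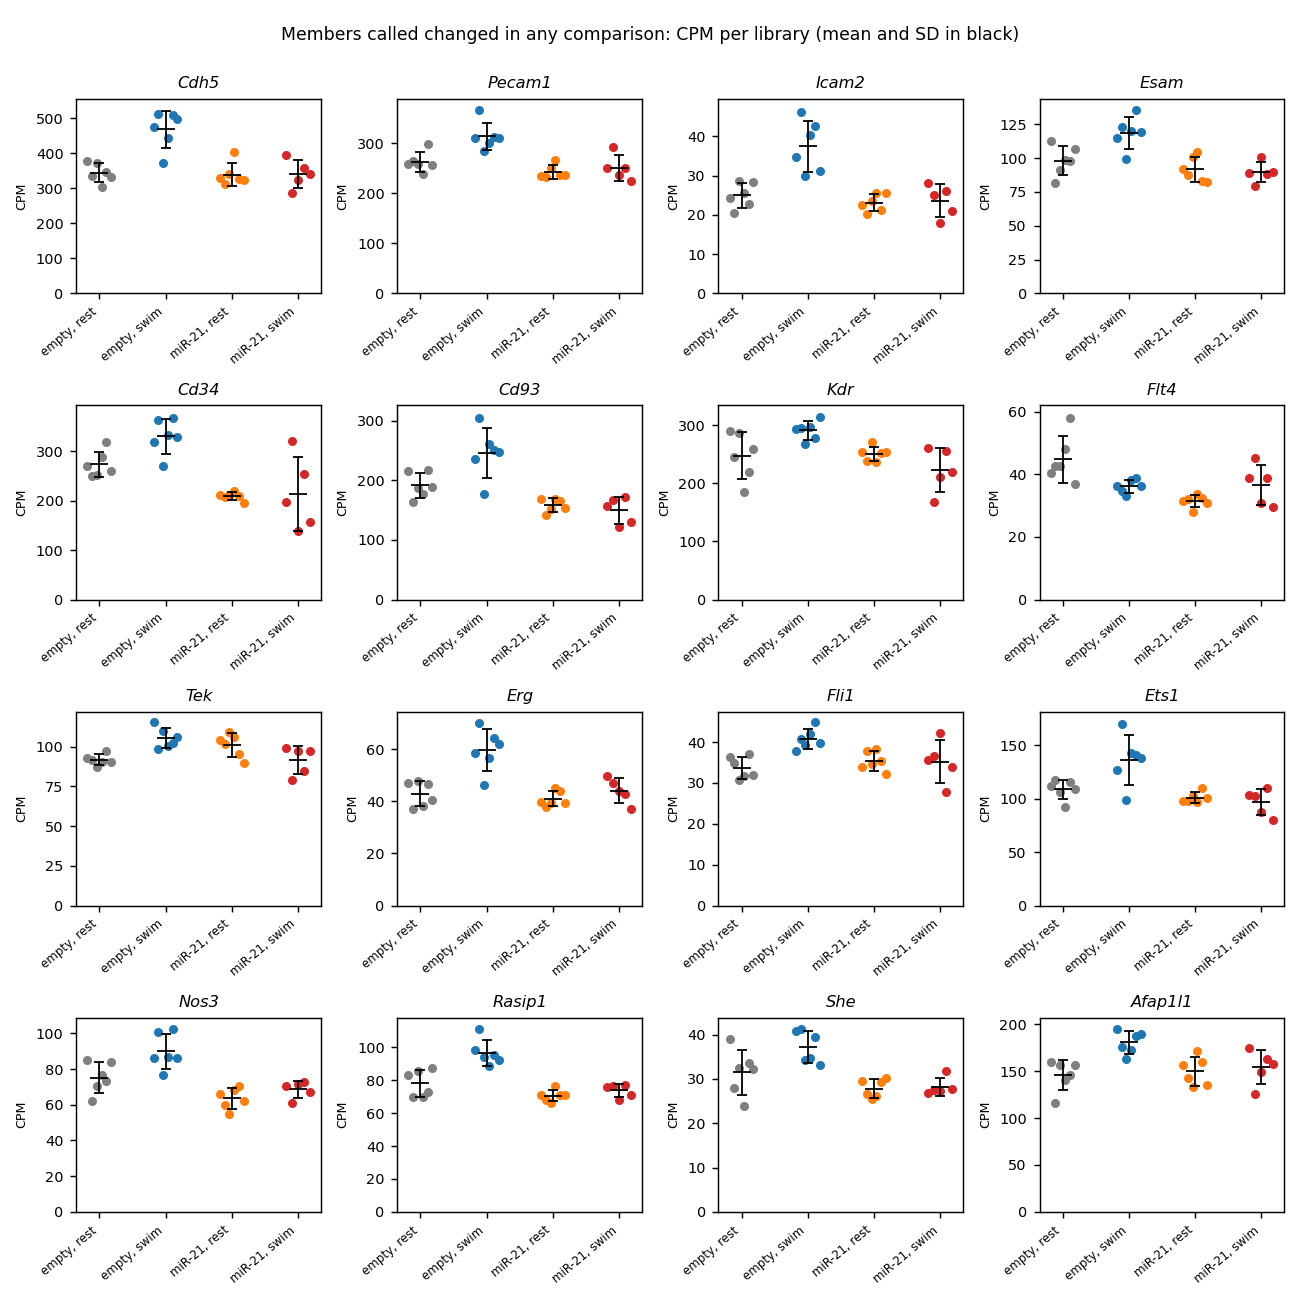
CPM per library of the 16 members that passed in at least 1 comparison, with 1 point per library, group means and SD in black, and axes from 0. For Icam2 and Rasip1 all 6 empty vector swimming libraries sit above every other library; for Flt4 the 6 miR-21 control libraries sit below the 6 empty vector controls.

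The second comparison asked what the miR-21 vector did in mice that had not swum. It changed 1 of 38 members, Flt4, which fell (2.63% lower, beside 1.37% of all genes), and 8 members had an unadjusted p under 0.05, beside 28.4% of all genes. The members' median log2 fold change was -0.10, with 13 of 38 positive, beside a median of -0.0048 over all genes. Flt4, the receptor of VEGF-C that marks lymphatic and sprouting endothelium, stood at 36.8 to 58.1 CPM (median 42.8) in the empty vector control, 33.2 to 38.7 CPM (median 36.2) with swimming and 27.9 to 33.8 CPM (median 31.8) in the miR-21 control. In the miR-21 swimming replicates it stood at 39.0, 45.1, 31.0, 38.7 and 29.4 CPM. All 6 miR-21 controls lay below all 6 empty vector controls, with a log2 change of -0.51 ± 0.10 (SE; edgeR adjusted p = 0.0165). Cd34 was the other member with no overlap, so 2 members (5.26%, beside 2.41% of all genes) had every miR-21 library below every control. The highest Flt4 value, 58.1, was that of replicate 5 of the control, 1 of the adipocyte-high libraries. The count was 0 without replicate 4 or 5 of the empty vector control or replicate 2 of the miR-21 control, and 4 without replicate 2 of the miR-21 swimming group. It was 2 without the 3 adipocyte-high libraries, where Nos3 joined Flt4, and 0 with the adipocyte and mesothelial scores or with the cardiomyocyte score as covariates.

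A lymphatic gene fell in the same comparison. Of 6 lymphatic markers 1 passed, the lymphatic chemokine Ccl21a (-1.34 ± 0.30, edgeR adjusted p = 0.0355). The list summed to 126 to 267 CPM in the empty vector control and 125 to 173 in the miR-21 control. Its 2 highest sums in the empty vector control, 232 and 267 CPM, were those of the adipocyte-high replicates 2 and 5. The part of the lymphatic markers in the Flt4 result was not tested. After Flt4 the members with the smallest p were Nos3 (-0.24 ± 0.08, SE, adjusted p = 0.0869), Plvap (-1.57 ± 0.55, adjusted p = 0.0931) and Cd34 (-0.39 ± 0.14, adjusted p = 0.0956). For Cd34 the 6 miR-21 controls stood at 195 to 219 CPM (median 210.4), with little spread, and the 6 empty vector controls at 250.4 to 318 CPM (median 265). VE-cadherin, Cdh5, did not pass with miR-21 without swimming, at -0.02 ± 0.09 (adjusted p = 0.876), and nor did Erg, at -0.07 ± 0.09 (adjusted p = 0.635).

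The next comparison set the miR-21 vector against the empty vector in mice that had swum. With miR-21, 12 of 38 members fell and 0 rose (31.6% lower, beside 2.71% of all genes, edgeR adjusted p under 0.05). They were 6 junction and surface genes (Cdh5, Pecam1, Icam2, Esam, Cd34 and Cd93), the ETS factors Erg and Ets1, the VEGF receptor Kdr, Nos3, Rasip1 and She. The median log2 fold change was -0.23, with 7 of 38 positive, beside 0.02 and 54.1% positive over all genes. An unadjusted p under 0.05 was found for 22 members, beside 19.8% of all genes. For 7 members, Icam2, Cd93, Kdr, Nos3, Egfl7, Rasip1 and She, every miR-21 library lay below every empty vector library (18.4%, beside 1.9% of all genes), and Egfl7 was the 1 among them that did not pass (adjusted p = 0.0704); without the 3 adipocyte-high libraries it passed (-0.23 ± 0.07, edgeR adjusted p = 0.0329). Leaving out any 1 library gave 10 to 14. Within the higher title number series, replicates 3 to 5 of the miR-21 swimming group against the 6 empty vector swimming libraries, 11 members fell, with Kdr and She lost and Mmrn2 gained. With only these 2 groups in the fit 6 passed (Icam2, Esam, Cd93, Nos3, Rasip1 and She), and limma voom gave 19. The 2.71% of all genes belongs to the main fit, and the shares in these other fits are not given here.

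The largest falls were in surface genes. Cd93 had a log2 change of -0.72 ± 0.11 (SE; edgeR adjusted p = 0.000936), from 246 ± 41.3 CPM (SD, n = 6) to 149.6 ± 22.8 (SD, n = 5). Icam2 had -0.66 ± 0.12 (SE; edgeR adjusted p = 0.00357) and Cdh5 -0.46 ± 0.09 (adjusted p = 0.00624). Esam had -0.41 ± 0.09 (adjusted p = 0.00882) and Pecam1 -0.32 ± 0.07 (adjusted p = 0.0154). Icam2, Esam, Cd93, Nos3 and Rasip1 passed in 35 of 35 alternatives, and Icam2 ranged over them from -0.79 to -0.58.

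Cd34, a sialomucin of capillary endothelium that stromal progenitor cells also carry, was the least even of these genes. It stood at 270.0 to 366 CPM (median 331) in the empty vector swimming group and at 197, 321, 138, 255 and 156 CPM in replicates 1 to 5 of the miR-21 swimming group. Replicate 2, with its adipocyte markers, stood inside the empty vector range, and replicates 3 and 5 lay far under all others. The log2 fold change was -0.63 ± 0.15 (SE; edgeR adjusted p = 0.0172) and the call was lost without replicate 5 of the miR-21 swimming group.

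Kdr stood at 261, 168, 210.2, 256 and 219.6 CPM in the miR-21 swimming replicates and at 237 to 271 CPM (median 252) in the miR-21 control. All 5 were below the lowest empty vector swimming library, with a log2 change of -0.39 ± 0.11 (SE; edgeR adjusted p = 0.0390). The call was lost without any 1 of replicate 2 of the empty vector control, replicates 1, 2, 4, 5 or 6 of the empty vector swimming group and replicates 3 or 5 of the miR-21 swimming group. Nos3 had -0.39 ± 0.09 (SE; edgeR adjusted p = 0.0115). The ETS factors Ets1 and Erg had -0.49 ± 0.10 and -0.43 ± 0.09 (SE; edgeR adjusted p = 0.00663 and 0.0102), and Rasip1 had -0.39 ± 0.07 (adjusted p = 0.00256).

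She, an adaptor with an SH2 domain, stood at 23.8 to 38.9 CPM (median 32.3) in the empty vector control, 33.0 to 41.3 CPM (median 37.0) with swimming and 25.4 to 30.2 CPM (median 27.9) in the miR-21 control, and at 26.7, 27.5, 27.2, 31.8 and 27.7 CPM in the miR-21 swimming replicates. The miR-21 swimming libraries were all under the lowest empty vector swimming library, with a log2 change of -0.40 ± 0.10 (SE; edgeR adjusted p = 0.0174). Of the 26 members that did not pass, the largest negative values were those of Aplnr (-0.73 ± 0.28, adjusted p = 0.138), Cldn5 (-0.60 ± 0.20, adjusted p = 0.0861) and Gpihbp1 (-0.46 ± 0.14, adjusted p = 0.0571). Aplnr was very uneven, at 74.1, 71.1, 21.3, 90.8 and 36.7 CPM in the miR-21 swimming replicates. Flt1 (0.15), Clec14a (0.02), Emcn (0.03), Flt4 (0.02) and Rgcc (0.00) lay near 0 or above it.

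Tight junction and lipid handling genes of the capillary wall were uneven between libraries. Cldn5, the main claudin of endothelial tight junctions, stood at 22.5 to 36.6 CPM (median 28.5) in the empty vector control, 19.6 to 36.8 CPM (median 29.9) with swimming and 13.6 to 37.6 CPM (median 23.2) in the miR-21 control, and at 17.6, 17.4, 25.6, 18.2 and 18.5 CPM in the miR-21 swimming replicates. All miR-21 swimming libraries but replicate 3 lay below the lowest library of both empty vector groups, while the miR-21 control held both the lowest and the highest of the 23. Gpihbp1 stood at 86.4 to 132 CPM (median 107) in the empty vector control, 122 to 144 CPM (median 127) with swimming and 93.8 to 141 CPM (median 103) in the miR-21 control, and at 90.4, 67.8, 126, 78.3 and 111 CPM in the miR-21 swimming replicates, where replicate 3 reached into the range of the empty vector swimming group. For miR-21 in swimming mice Gpihbp1 passed without the 3 adipocyte-high libraries (-0.36 ± 0.12, edgeR adjusted p = 0.0466) and with the cardiomyocyte score (-0.44 ± 0.11, adjusted p = 0.00936). Emcn and Tie1 were steadier. Group means of Emcn, taking those 4 groups in turn, were 70.9 ± 3.00, 66.5 ± 4.45, 66.1 ± 9.09 and 67.9 ± 6.54 (CPM with SD over 6, 6, 6 and 5 libraries), and those of Tie1 219 ± 15.8, 230.0 ± 25.4, 204 ± 10.6 and 200.2 ± 17.5.

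Swimming with the empty vector and miR-21 in swimming mice share the 6 empty vector swimming libraries, so a gene that is high in those libraries is moved in both comparisons. Passing in both were 8 members: Cdh5, Pecam1, Icam2, Esam, Cd93, Erg, Ets1 and Rasip1. Tek, Fli1 and Afap1l1 passed in the swimming comparison and not in the miR-21 one, and Cd34, Kdr, Nos3 and She the other way round. For miR-21 in swimming mice Tek had -0.21 (edgeR adjusted p = 0.0676), Fli1 -0.21 (0.139) and Afap1l1 -0.23 (0.152). Of the 38 members 22 passed in no comparison by edgeR over all 23 libraries. The shares of all genes that passed in both comparisons or in none are not given here. The 8 and the 22 are therefore not a result about the members.

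The last group comparison asked whether swimming made a difference with the miR-21 vector. By edgeR 0 of 38 members passed, beside 0.17% of all genes, and DESeq2 and limma voom also gave 0. An unadjusted edgeR p under 0.05 was found for 4 members, beside 18.8% of all genes. The median log2 fold change was 0.01, with 21 of 38 positive, beside 0.03 over all genes. VE-cadherin had 0.01 ± 0.09 (SE; edgeR adjusted p = 0.978) and Icam2 0.03 ± 0.12 (adjusted p = 0.906). The 4 smallest p-values were those of Plvap (1.35 ± 0.57, adjusted p = 0.217), Tek (-0.14 ± 0.06, adjusted p = 0.237), Flt4 (0.22 ± 0.10, adjusted p = 0.253) and Ramp2 (0.18 ± 0.09, adjusted p = 0.260). Within the lower title number series, where 2 of the miR-21 swimming libraries remain and 1 is adipocyte-high, 3 members were higher with swimming: Mmrn2, Flt4 and Plvap. More of all genes passed there than the 0.17% above, as Mmrn2 passed at an unadjusted edgeR p of 0.0027 (adjusted p = 0.0428). The share of all genes in that fit is not given here, so the 3 are not a result about the members.

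The interaction tested whether swimming had another effect under miR-21, as the change with miR-21 minus that with the empty vector. By edgeR 0 of 38 members passed, beside 0.541% of all genes, so a difference between the vectors in the effect of swimming was not shown for any member by this test. The median interaction was -0.22 with 9 of 38 positive, beside 0.0079 over all genes. An unadjusted p under 0.05 was found for 14 members, beside 21.5% of all genes. DESeq2 gave 5 (Cdh5, Icam2 and Tek lower, Flt4 and Plvap higher) and limma voom gave 1 (Tek). The share of all genes that passed by DESeq2 or limma voom is not given here. The count was 2 without replicate 1, 3 or 5 of the miR-21 swimming group and 1 without replicate 6 of the empty vector control or replicate 6 of the miR-21 control. The smallest p-values were those of Tek (-0.35 ± 0.09, SE, edgeR adjusted p = 0.0594), Flt4 (0.53 ± 0.14, adjusted p = 0.0678), Cdh5 (-0.43 ± 0.13, adjusted p = 0.0818) and Plvap (2.67 ± 0.79, adjusted p = 0.0841).

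Library by library, the members did not move as 1 block. In each of the 6 empty vector swimming libraries 24 to 33 of the 38 members were above their own mean over the 23 libraries. In the miR-21 control the number was 6 to 19, in the miR-21 swimming group 11 to 21 and in the empty vector control 10 to 29. Replicate 3 was the lowest swimming library with the empty vector, with 24 members above their mean and a median deviation of 0.05 log2 units against 0.14 to 0.24 in the other 5. In the control, replicates 2 and 4 were low, with 11 and 10 members above their mean. The control range thus reached up to replicate 1, with 29, which overlapped the swimming range.

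**Figure D4:**
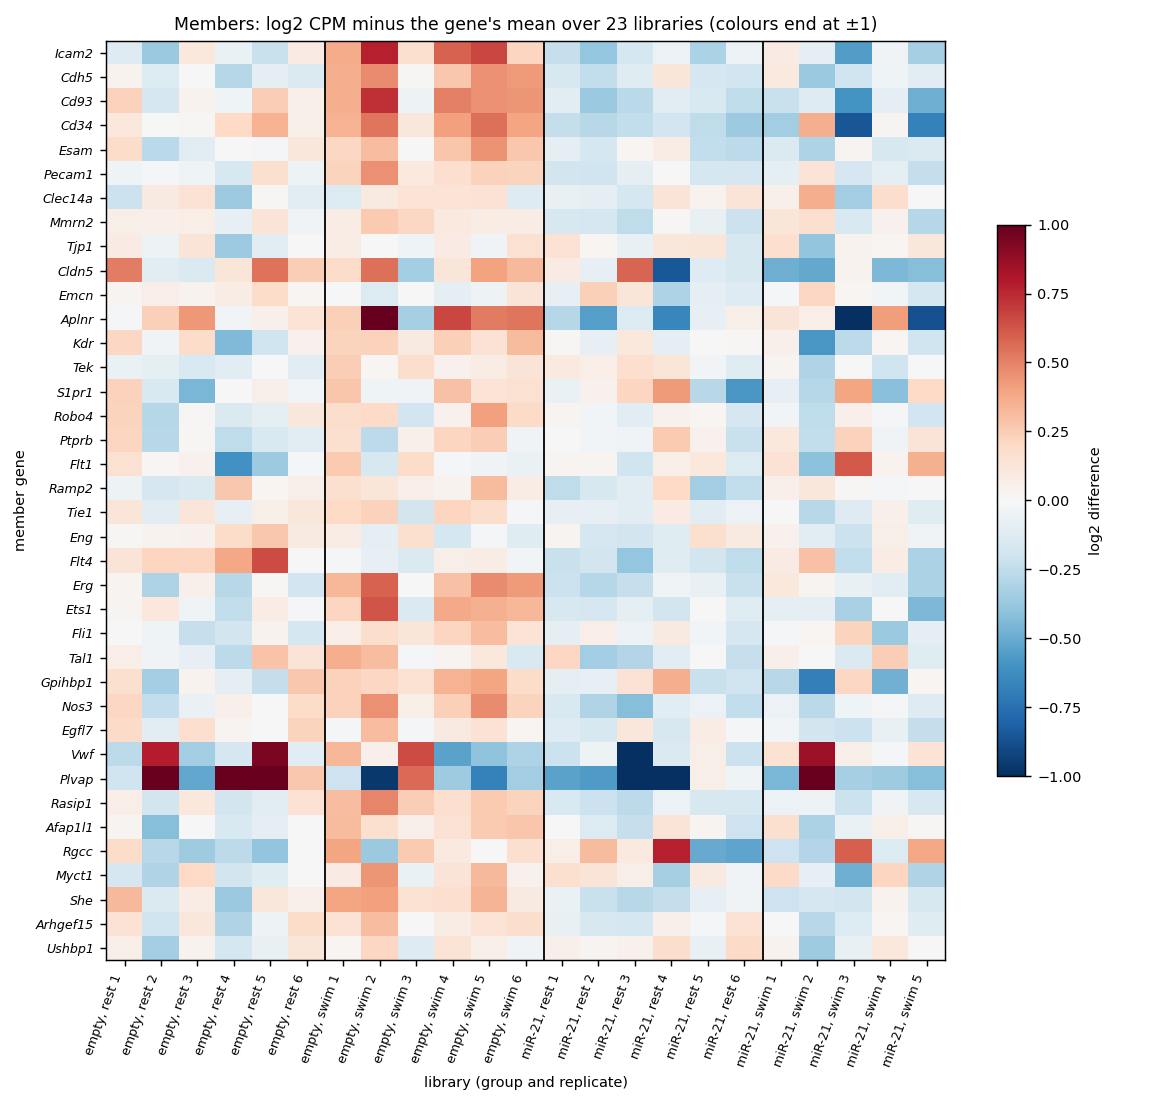
Log2 CPM of each member minus its mean over the 23 libraries, with members in rows by role, libraries in columns by group and colours that end at ±1. The empty vector swimming columns hold 24 to 33 members above their mean, and Plvap and Vwf stand out by their high values in single libraries of other groups.

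Plvap and Vwf, which mark venules and larger vessels more than capillaries, followed another pattern, and Vwf is described after its values were seen. Plvap stood at 69.1, 70.6 and 114 CPM in the 3 adipocyte-high libraries, at 49.2 in replicate 4 of the empty vector control, and at 29.1 or less in the other 19. Vwf, a clotting protein stored in endothelial granules, stood at 226, 252 and 237 CPM in the adipocyte-high libraries and at up to 206 in the others. Both genes were thus highest in the 3 libraries with adipocyte markers, in 2 different groups. In the same 3 libraries 8 venous and activated endothelial markers summed to 314, 284 and 328 CPM, against 158 to 263 in the other 20. Activated fibroblast markers were also highest there, at 1784.1, 1784.1 and 1967 CPM against at most 1688 elsewhere, beside the leukocyte and macrophage sums given at the start. Fibroblast markers stood at 8384, 6832 and 5785 CPM there and at up to 5945 elsewhere. Mesothelial markers stood at 26.1, 40.2 and 198 CPM there and at 6.84 to 47.0 elsewhere. The values 1688, 5945 and 47.0 were all those of replicate 4 of the empty vector control. Its cardiomyocyte sum, 90465 CPM, was the lowest outside the 3 libraries, while its adipocyte markers summed to 48.5 CPM. Fits without the 3 libraries keep this replicate. Without these 3 libraries Plvap went from -1.32 to -0.67 for swimming with the empty vector, from -1.57 to -0.92 for miR-21 without swimming, from 1.10 to -0.14 for miR-21 in swimming mice, from 1.35 to 0.10 for swimming with miR-21 and from 2.67 to 0.78 for the interaction, in log2 units and passing in none. Vwf went from -0.21 to 0.25 for swimming with the empty vector and from -0.49 to -0.03 for miR-21 without swimming. With the title number series in the model Plvap had 0.79 ± 0.85 and Vwf 0.28 ± 0.49 for swimming with the empty vector, both of the other sign. That term sets replicate 1 and the adipocyte-high replicate 2 of the miR-21 swimming group against its other replicates. VE-cadherin did not share the pattern of levels, at 336, 347 and 286 CPM. Which tissue the Plvap and Vwf transcripts came from was not tested.

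**Figure D5:**
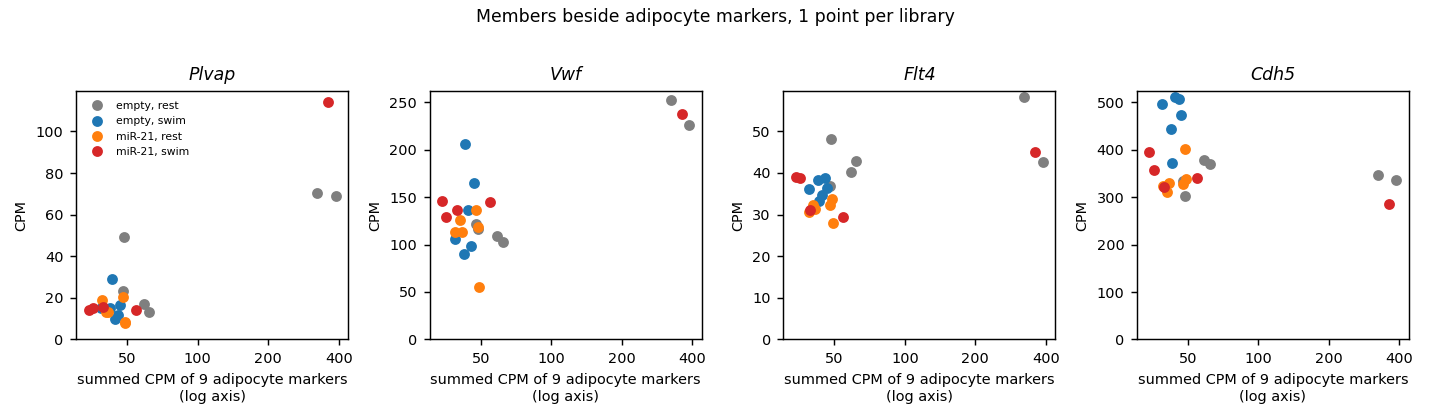
CPM of Plvap, Vwf, Flt4 and Cdh5 in each library against the summed CPM of 9 adipocyte markers (log axis), with 1 point per library coloured by group. Plvap and Vwf are highest in the 3 libraries at 324 to 389 CPM of adipocyte markers, while Cdh5 is not.

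Genes around the members moved in part with them. Of 17 tested ligands and cofactors of the member receptors, 2 rose with swimming under the empty vector and 0 fell. Apln, the ligand of Aplnr, rose from 12.5 ± 2.70 CPM (SD, n = 6) to 25.3 ± 6.01 (SD, n = 6), a log2 change of 1.02 ± 0.20 (SE; edgeR adjusted p = 0.00349). The VEGF-C co-receptor Nrp2 rose by 0.58 ± 0.12 (adjusted p = 0.00515). With miR-21 in swimming mice 3 of the 17 fell: Nrp2 (-0.82 ± 0.13), Apln (-1.06 ± 0.21) and the placental growth factor Pgf (-0.66 ± 0.17). The main ligand of Kdr did not pass in either: Vegfa had -0.12 and -0.07. With miR-21 without swimming 0 of the 17 passed by edgeR, and 7 had an unadjusted p under 0.05.

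Of 26 other endothelial genes 3 rose with swimming under the empty vector: the caveolar coat gene Cav1 (0.73 ± 0.09), the Nos3 trafficking gene Nostrin (0.53 ± 0.15) and the adhesion molecule Mcam (0.33 ± 0.10). In swimming mice 6 of the 26 fell with miR-21, with Cav1 at -0.62 ± 0.09, Mcam at -0.71 ± 0.10 and Nostrin at -1.04 ± 0.16, and Sox7, which the series title names, at -0.84 ± 0.19. With miR-21 without swimming 3 of the 26 fell, Mcam, Elk3 and Tspan18, beside 1.37% of all genes. All 3 are among the 6 genes that fell in swimming mice. Cav1 also passed for the interaction (-0.76 ± 0.12, edgeR adjusted p = 0.00375). Among 20 other junction genes 0 passed for swimming by edgeR, with 3 at an unadjusted p under 0.05, and 1 fell with miR-21 in swimming mice, the p120 catenin gene Ctnnd1 (-0.20 ± 0.06), whose protein holds VE-cadherin at the surface. The median log2 fold changes of these 20 genes were 0.05 for swimming and -0.06 for miR-21 in swimming mice.

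By vessel type, 2 of 11 capillary genes rose with swimming, the homeobox factor Meox2 (0.69 ± 0.09) and the potassium channel gene Kcna5 (0.74 ± 0.20). Meox2 also rose with miR-21 without swimming, and it passed as lower for the interaction. In swimming mice 3 of the 11 fell with miR-21, the fatty acid carriers Fabp4 (-0.38 ± 0.09) and Fabp5 (-0.72 ± 0.12) and the retinol carrier Rbp7 (-0.98 ± 0.19). By edgeR 0 of 11 arterial and 0 of 8 venous genes passed in any of the 4 group comparisons. At an unadjusted p under 0.05 the arterial and venous numbers were 3 and 1 for swimming with the empty vector, 1 and 6 for miR-21 without swimming, 1 and 1 for miR-21 in swimming mice, and 1 and 4 for swimming with miR-21. Of 6 lymphatic genes Ccl21a (-1.59 ± 0.31) and Mmrn1 (-1.29 ± 0.33) fell with swimming, in the direction opposite to the members that passed. The lymphatic markers summed to 232, 267 and 224 CPM in the 3 adipocyte-high libraries, against at most 201 elsewhere. As 2 of these 3 are controls in the swimming comparison, the fall cannot be told apart from a trait of those libraries. Prox1 (0.55 ± 0.13) rose with miR-21 in swimming mice. Prox1 is also expressed by heart muscle cells.

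Markers of other cells moved beside the members. With swimming under the empty vector 8 of 12 cell cycle genes rose, and their summed level was 126 to 223 CPM against 65.7 to 95.3 in the control, with no overlap. In the miR-21 swimming group the sum was 147 CPM in the adipocyte-high replicate 2 and 58.3 to 74.4 in the other 4. Of 8 pericyte genes 3 rose with swimming, Rgs5 (0.56 ± 0.11), Notch3 (0.31 ± 0.09) and Kcnj8 (0.32 ± 0.10), and their sum was 1429.9 to 1668 CPM against 1049.6 to 1400.5. With miR-21 in swimming mice 2 cell cycle genes, Bub1 and Ccna2, and 1 pericyte gene, Higd1b, fell. The part of cell cycle and pericyte genes in the member result was not tested.

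Some markers of fat, mesothelium, fibroblasts and T cells fell with swimming under the empty vector, where 2 of the 6 controls are adipocyte-high. Of 5 tested adipocyte genes 4 fell (median -5.54 over the 5), and their list summed to 38.9 to 46.7 CPM with swimming and 47.8 to 389 in the control. Of 8 mesothelial genes 1 fell, Upk3b (median -3.77 over the 8), of 8 fibroblast genes 1, Dcn (-0.59 ± 0.18), of 8 activated fibroblast genes 1, Comp (-4.16 ± 0.89), and of 6 T and NK cell genes 1, Cd3e (-2.93 ± 0.87). The mast cell and stem cell factor receptor gene Kit rose (0.67 ± 0.17), as did the smooth muscle gene Smtn (0.57 ± 0.12). With miR-21 in swimming mice 4 of 8 mesothelial genes rose (Upk3b, Upk1b, Lrrn4 and Msln), and their list summed to 198 CPM in the adipocyte-high replicate 2 and to 6.84 to 14.6 in the other 4 libraries, against 8.41 to 14.6 with the empty vector. Of 5 mast cell genes Cpa3 (2.51 ± 0.67) and Cma1 (2.53 ± 0.71) rose and Kit (-0.75 ± 0.18) fell.

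Cardiomyocyte markers, where 0 of 10 passed by edgeR and 2 had an unadjusted p under 0.05, summed to 91454 to 105838 CPM with swimming and 75885 to 109892 in the control. With the cardiomyocyte score as a covariate 14 members passed for swimming (13 higher, and Flt4 lower) and 16 for miR-21 in swimming mice. With the adipocyte and mesothelial scores 9 and 13 passed, and without the 3 adipocyte-high libraries 10 and 14. With the adipocyte and mesothelial scores more of all genes passed for miR-21 in swimming mice. There an unadjusted edgeR p of 0.0076 was enough for Fli1 to pass, while in the main fit 0.0029 was not enough for Gpihbp1. The shares of all genes passing in these fits are not given here, so the counts cannot be set beside them. Esam, Tek and Afap1l1 were lost and Cd34 (0.50 ± 0.12, edgeR adjusted p = 0.00768) gained for swimming with the adipocyte and mesothelial scores.

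In the authors' deposited tables, at an adjusted p under 0.05, 5 members were higher with swimming under the empty vector: Cdh5, Icam2, Erg, Rasip1 and Afap1l1. In the authors' deposited table for miR-21 without swimming 4 members were lower, Cd34, Cd93, Flt4 and Aplnr. In the authors' deposited table for miR-21 in swimming mice 5 were lower, Cdh5, Icam2, Cd93, Kdr and Gpihbp1. The authors' deposited table for swimming with miR-21 had 0. The shares of all genes passing in these 4 deposited tables are not given here, so the counts cannot be set beside them.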

How the data were processed

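RNA of mouse hearts was sequenced, and of 24 samples in the labels 23 have counts. TRIzol and a stranded mRNA library kit were used, per the labels, and per the submitters' processing notes the build was GRCm39; aligner and counting program were not given in the sources used here. The authors deposited raw counts per gene, which were used for every test, and FPKM, used only for levels between genes. The authors' 4 deposited comparison tables give log2 fold changes with p-values and adjusted p-values, by a tool they do not name; 46 per-library columns of those tables were not used. Replicate 6 of the miR-21 swimming group has no column of counts and was therefore not analysed here.

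Groups came from the labels. Genes were filtered with filterByExpr (minimum count 10), which left 13501, scaled by TMM and fitted in 1 edgeR quasi-likelihood model with robust dispersion over all 23 libraries, with 4 comparisons and their interaction. A gene passed at a Benjamini-Hochberg adjusted p under 0.05 over all 13501. The SE given with a log2 fold change is that of the model, and CPM is TMM-normalised. The fit was tested on simulated data. The software was edgeR 4.0.16, DESeq2 1.42.0 and limma 3.58.1 in R 4.3.3, and pandas 2.3.3, matplotlib 3.10.9 and numpy 2.4.6 in Python 3.11.15. Libraries held 12744241 to 14657630 counts, and the lowest member value in any library was 8.10 CPM.

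The 38 members, their 5 roles and the 24 other gene lists were chosen with earlier results of these data known. All members that passed in a comparison are named, with those of smallest p up to 4 in all where fewer passed. From the other lists some genes that passed are named, mostly up to 3 of smallest p, plus Sox7. This was not done for every list and comparison. Alternatives were RLE and upper quartile factors, no filter or a minimum mean of 1 CPM, limma voom with quality weights, DESeq2, only the 2 groups compared, a title number series term, values within 1 series, each library left out, the 3 adipocyte-high libraries left out, and marker scores as covariates (mean log2 CPM with a prior count of 2). Promoters and the miRNA are from RefSeq (GRCm38.p6) and untranslated regions from GENCODE M21, both of an earlier build than the counts, so their coordinates are those of GRCm38.p6.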

Additional observations from a re-analysis of the deposited data

Results flagged for a closer look

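In each group of 5 or 6 libraries, the highest and lowest CPM of each member were compared with the rest by Dixon's ratio at its 95% critical value. Of 152 combinations of member and group 10 held a library that stood apart, and chance gives about 1 in 20. In replicate 4 of the miR-21 control Cdh5 stood at 403 CPM, with the next at 339.6, and Tie1 at 226, with the next at 204; the gaps concern the same library. In replicate 2 of the empty vector swimming group Pecam1 stood at 366 CPM, with the next at 312. In replicate 3 of the miR-21 swimming group Cldn5 stood at 25.6 CPM, above 18.5 in the next. In replicate 5 of the empty vector control, an adipocyte-high library, Emcn stood at 76.7 CPM, above 71.3 in the next. In replicate 4 of the miR-21 swimming group She stood at 31.8 CPM, above 27.7. Vwf was low in replicate 3 of the miR-21 control, at 55.4 CPM under 113 in the next, and high in the adipocyte-high replicate 2 of the miR-21 swimming group, at 237 above 146. Plvap was high in that same library, at 114 CPM above 15.4, and in replicate 3 of the empty vector swimming group, at 29.1 above 16.7.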

How the results depend on the processing

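No member that passed changed sign under an alternative in the comparison where it passed. Members that did not pass did: over 34, 34, 35, 35 and 33 alternatives 14, 12, 9, 22 and 11 of the 38 took the other sign at least once, in the order of comparisons below. For swimming with the empty vector 12 did so with the title number series term, where Plvap went from -1.32 to 0.79, Rgcc from 0.28 to -0.28, Vwf from -0.21 to 0.28, Flt1 from 0.14 to -0.32 and Gpihbp1 from 0.28 to -0.14, and 10 with the adipocyte and mesothelial scores, where Plvap had 0.20. For miR-21 in swimming mice Plvap went from 1.10 to -0.12 with the series term, and to -0.14 without the 3 adipocyte-high libraries. For swimming with the empty vector (11 members) the count was 2 with the title number series term, and leaving out 1 library gave 4 to 14, the highest without replicate 2 of the miR-21 swimming group. For miR-21 without swimming (1 member) it was 2 by DESeq2, 5 by limma voom, 4 with only the 2 groups compared, 2 without the 3 adipocyte-high libraries, 0 with the adipocyte and mesothelial scores and 0 with the cardiomyocyte score, and 0 to 4 with 1 library left out. For miR-21 in swimming mice (12) it was 19 by limma voom and 6 with only the 2 groups compared, and 10 to 14 with 1 library left out. For swimming with miR-21 (0) it was 3 with the title number series term, and 0 with each library left out. The values within 1 series equal those with the series term, which is estimated only inside the miR-21 swimming group. The 2 alternatives are therefore not separate checks, here or for miR-21 in swimming mice. For the interaction (0) it was 5 by DESeq2 and 1 by limma voom, and 0 to 2 with 1 library left out. The cause of these shifts was not tested, except that fewer libraries enter the fits with 2 groups. The other scalings and filters left each count within 1.5 times its value above. Shares of all genes passing are given for the main fit only, so the counts under alternatives have no such share beside them. No value within 1 series exists for swimming with the empty vector. No paired analysis was possible because the labels give the groups no shared replicate numbers.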
